A study of Etheostoma caeruleum with 31 samples.

Results

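This report describes 54 microarray probes measured in the testis of the rainbow darter (Etheostoma caeruleum), a small freshwater fish. For each of these probes the mean signal was higher in both spring breeding months than in the other months sampled. They are 54 (0.626%) of the 8621 probes of the main design series (names beginning GT_) that were well above background on at least 5 of 31 arrays. Adult males were caught in a clean area of the Grand River, Ontario, in 5 months, each of which stands for a reproductive stage, and total testis RNA was hybridised to 1-colour (Cy3) oligonucleotide arrays. The collections of 2011 gave 7 arrays of spawning testis (month 5), 6 arrays of the post-spawning stage (month 8) and 5 arrays of recrudescence (month 10). Those of 2012 gave 6 arrays of developing testis (month 1) and 7 arrays of the pre-spawning stage (month 3). All fish were wild and untreated, the arrays of a stage are labelled as biological replicates, and stage cannot be told apart from calendar month, since each stage comes from a single collection. In a whole tissue, fewer cells of a type and less RNA per cell cannot be told apart either.

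In seasonally breeding fish the testis holds cysts of germ cells enclosed by Sertoli cells, with androgen-producing Leydig cells between the lobules. Around spawning the lobules fill with mature sperm, and afterwards the testis regresses. It is later rebuilt as spermatogonia divide, enter meiosis and mature for the next season, so that the mixture of cells in the organ changes over the year. Neither gene names nor sequences of the probes were at hand, so that the transcripts are given by probe name, with no role, and the tissue could not be checked against marker genes. The prefix GT_EA516_ is left out of the names after their first use.

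Levels are log2 signals relative to the array's own 75th percentile, so that 0 is a bright spot and each step of 1 is 2-fold. The probes were chosen by their stage means. The lower of the spawning and pre-spawning means had to exceed the highest of the other 3 means by at least 0.7, and this difference is called the margin below. Further conditions limited how the other 3 stages could differ. Recrudescence had to be less than 1 above the higher of the post-spawning and developing means, the developing mean less than 3 above the post-spawning mean, and less than 0.7 below the lower of the post-spawning and recrudescence means. The condition on recrudescence removed 1 probe, with a margin of 0.99. The seasonal difference itself is therefore a description and was not tested. Margins of the 54 ran from 0.70 to 2.12 (1.63-fold to 4.34-fold) with a median of 0.84 (1.80-fold), and 15 reached at least 1. The 5 probes just inside the threshold had margins of 0.70 to 0.72 and the 5 just outside had 0.68 to 0.69. Between 0.7 and 0.8 lay 22 members and between 0.6 and 0.7 another 39 probes, so that the set has no natural edge. Over all 8638 probes tested, including 17 not named GT_, the median margin was -0.68, and none of those 17 reached 0.7.

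The 75th percentile of the spot intensity ranged from 2734 to 5093 over the 31 arrays, and between 78.0% and 95.8% of probes were well above background on an array. No non-control spot was saturated. The median of all tested probes was -2.31 in spawning and -2.33 in pre-spawning testis, against -2.07 in post-spawning, -2.27 in recrudescence and -2.18 in developing testis. Under this scaling the bulk of the array was thus slightly lower in the breeding stages, where the 54 probes were higher.

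The median level of the 54 probes came to -1.62 ± 0.16 (SD, n = 7) during spawning, and before it to -1.85 ± 0.45 (n = 7). It was -3.97 ± 0.19 (n = 6) in post-spawning, -3.28 ± 0.12 (n = 5) in recrudescence and -3.46 ± 0.57 (n = 6) in developing testis. The lowest breeding array stood at -2.39 and the highest of the other arrays at -2.80, so that this summary did not overlap, as the choice of probes makes likely. Probe by probe the separation was less clean. For 16 of the 54 probes each of the 14 breeding arrays lay above each of the other 17 arrays. The share among all tested probes was 0.822%, but the rule used this contrast, and nothing is read from the difference.

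**Figure D1:**
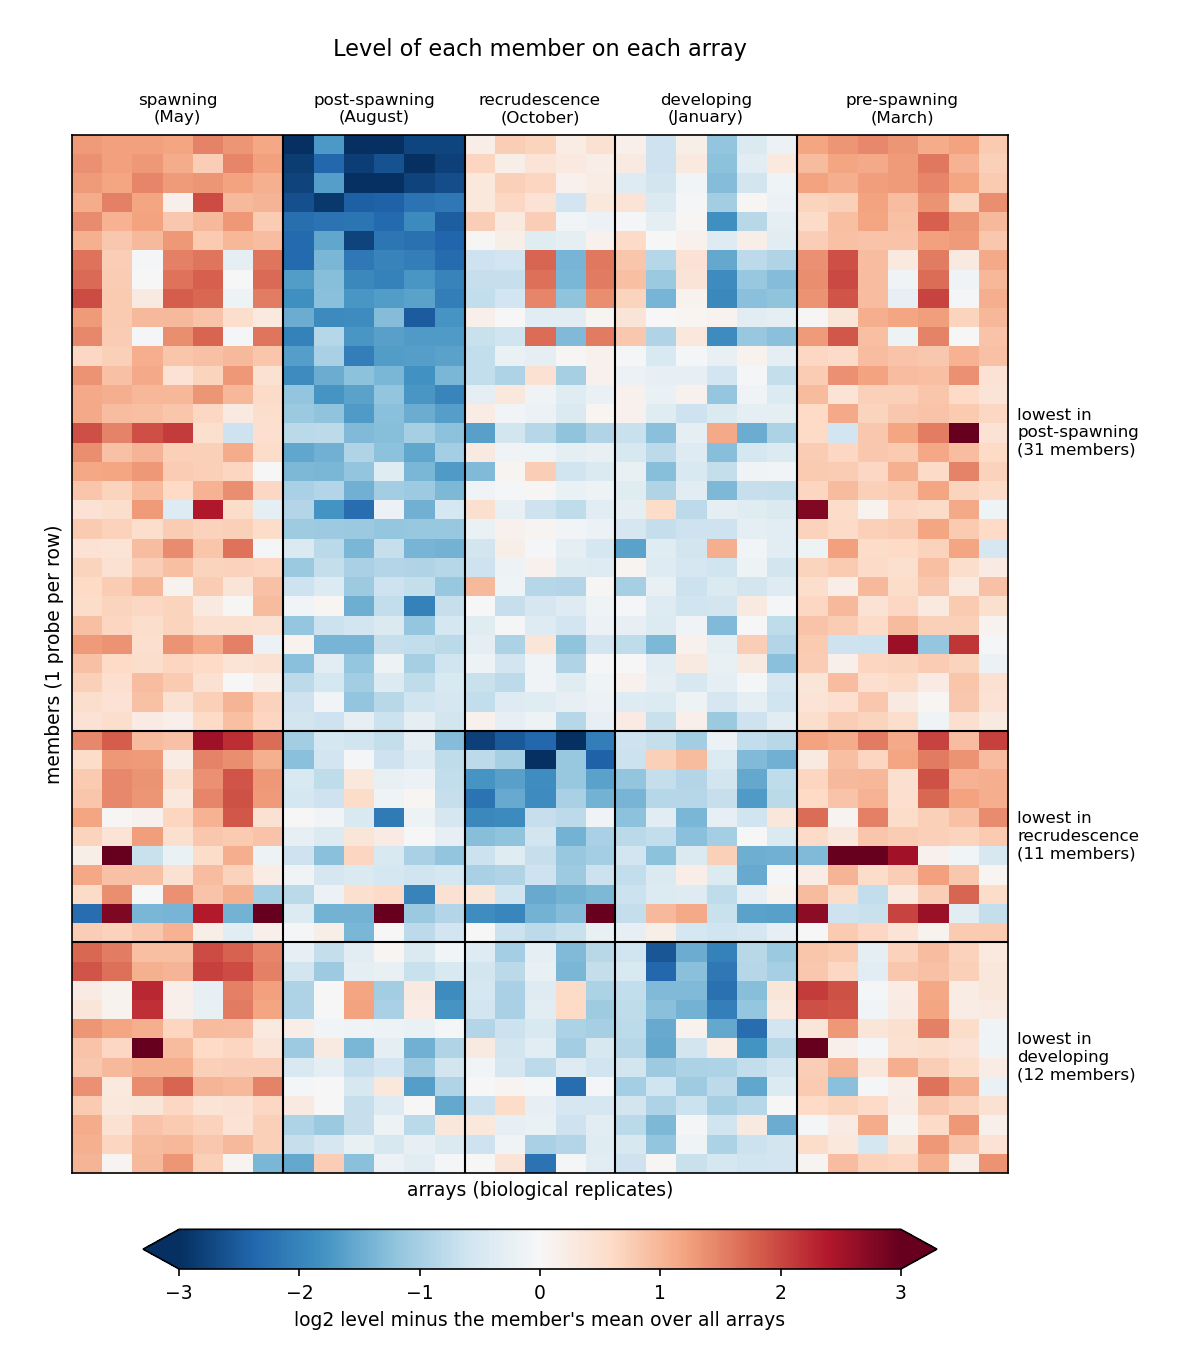
Each row is 1 of the 54 probes and each column 1 of the 31 arrays, coloured by the log2 level minus that probe's mean over all arrays (colours end at -3 and 3). Rows are grouped by the stage outside the breeding months in which the mean was lowest (31 post-spawning, 11 recrudescence, 12 developing), and the spawning and pre-spawning blocks are mostly red.

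The probes covered the whole range of brightness. By mean level they lay between the 2.08th and the 95.6th percentile of the tested probes, with 16, 13, 13 and 12 of them in successive bins of equal size from dim to bright. Of the 54, 38 were well above background on all 31 arrays and 16 on fewer, with a minimum of 6 arrays. Among the 16, there were 8 that were well above background on fewer than 5 arrays outside the breeding months and would not have passed the detection filter without the stages in which they were high. For 5 probes at least 1 of the stages outside breeding had no array well above background, so that only an approximate bound exists there. This gives 14 pairs of a breeding stage and such a stage. In 7 of them, from 3 probes, at least 4 of the 7 breeding arrays were well above background. These 3 probes are among the 8 above. In the other 7 pairs only 1 to 3 breeding arrays were well above background. No fold is given for any pair, since the bound is not a strict limit of detection. Probe GT_EA516_un_as_sp_12235 was well above background on only 3 of the 7 pre-spawning arrays, although its levels there ran from -6.47 to -5.90. A few bright arrays can carry the mean of a dim probe. The spawning median of GT_EA516_un_s_sp_13156, -8.96, lay below its post-spawning and developing medians, -8.60 and -8.30. It was well above background on 3 of the 7 spawning arrays. GT_EA516_an_s_sp_1429, with a margin of 1.39, was well above background on 3 of 7 arrays in each breeding stage. Both are named for their values.

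Probe GT_EA516_an_s_sp_4398 had the largest margin, 2.12, and was well above background on all arrays. Its spawning levels ran from -2.61 over a median of -1.81 to -0.94, and its pre-spawning levels from -2.56 over -2.27 to -1.43. In post-spawning testis they ran from -4.78 to -3.76 with a median of -4.14. The developing levels lay in the same range, from -4.52 to -3.66 with a median of -4.20. The 5 recrudescence arrays were lower still, at -6.29, -5.99, -5.84, -6.69 and -5.55. No breeding array overlapped with any other array for this probe. The recrudescence mean was 16.3-fold below the lower breeding mean, and no recrudescence array reached the level of any post-spawning or developing array.

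Probe GT_EA516_an_s_sp_3909 had the second largest margin, 1.63, and was among the dimmest. Its spawning levels ran from -8.37 over a median of -6.26 to -5.64 and its pre-spawning levels from -8.31 over -6.93 to -4.45. The other arrays lay between -9.38 and -6.62. The groups overlapped: spawning replicate 6 and pre-spawning replicate 2 lay among the other stages, and developing replicate 4 lay among the breeding arrays. It was well above background on 11 arrays and on no post-spawning or recrudescence array. Its spawning and pre-spawning means were -6.63 and -6.70. No fold against the dim stages is given for this probe, for the reason stated above. With another background correction (normexp) its margin fell to 0.51.

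Outside the breeding months the 54 probes followed different courses. The mean was lowest in post-spawning testis for 31 probes, in developing testis for 12 and in recrudescence for 11. The rule limits these differences, so that they are given without a test. Relative to the lower breeding mean, the post-spawning mean was lower by a median of 1.38 on the log2 scale (0.70 to 4.11), the developing mean by 1.21 (0.71 to 2.12) and the recrudescence mean by 0.92 (0.70 to 4.02). Differences of at least 8-fold were found for 7 probes in post-spawning testis, for 1 in recrudescence and for 0 in developing testis. The 3 means lay within 0.5 of each other for 17 probes and spanned 2 or more for 7.

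The largest group, the 31 probes lowest in post-spawning testis, were a median of 4.12-fold below the breeding stages there, with the 3 that had only a bound set at it, and 21 of the 31 were well above background on all arrays. In 21 of the 31 the developing mean was below that of recrudescence, so that the level of winter lay between those of late summer and autumn. GT_EA516_an_s_sp_4005 had the widest difference. It is named for its values, as are the probes singled out in the next paragraphs other than an_as_sp_43 and an_s_sp_691. Its levels were 1.96 to 2.28 in spawning testis (median 2.03) and -3.01 to -0.94 in post-spawning testis (median -2.14). They were 0.98, 1.52, 1.46, 1.03 and 1.25 in recrudescence, lay between -0.40 and 0.97 (median 0.48) in developing testis and between 1.57 and 2.23 (median 1.99) in pre-spawning testis. Every breeding array was above every other array, although the highest recrudescence level, 1.52, came close to the lowest pre-spawning level, 1.57. The post-spawning mean was 17.2-fold below the lower breeding mean. The brightest of all 54 probes, GT_EA516_an_s_sp_2982, took the same course, with means of 4.17 ± 0.13 (SD, n = 7) in spawning and 4.09 ± 0.20 (n = 7) in pre-spawning testis. Its means were 0.22 ± 0.55 (n = 6) after spawning, 3.31 ± 0.25 (n = 5) in recrudescence and 2.41 ± 0.44 (n = 6) in developing testis. Its breeding levels varied little between arrays, and their lowest value, 3.70, lay just above the highest in recrudescence, 3.62.

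The 11 probes lowest in recrudescence were a median of 3.38-fold below the breeding stages there, with the 1 that had only a bound set at it. Of the 11, 7 were well above background on all arrays, and the others on only 0 to 2 of the 5 recrudescence arrays. The 11 include an_s_sp_4398 above. Another of them was GT_EA516_an_s_xh_391, with means of 1.27 ± 0.47 (SD, n = 7) in spawning and 1.06 ± 0.45 (n = 7) in pre-spawning testis. It stood at -0.30 ± 0.40 (n = 6) in post-spawning testis, at -1.56 ± 0.28 (n = 5) in recrudescence and at -0.89 ± 0.36 (n = 6) in developing testis. The lowest breeding level, 0.52, was above the highest of the others, 0.35. In this probe and in an_s_sp_4398 the means of late summer and winter both lay above that of autumn, as the grouping requires.

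The 12 probes lowest in developing testis were a median of 2.90-fold below the breeding stages there, at most 3.99-fold, and 10 of the 12 were well above background on all arrays. The widest difference belonged to GT_EA516_an_s_sp_691. Its spawning levels ran from -0.85 to 0.19 (median -0.21), its post-spawning levels from -2.46 to -1.71 (median -2.04), and its recrudescence levels were -2.13, -2.77, -2.04, -3.08 and -2.58. The developing levels spread widely, from -4.33 to -2.34 with a median of -3.05. In pre-spawning testis they ran from -2.03 to -0.82 with a median of -1.06. The lowest pre-spawning array, replicate 3, overlapped with the post-spawning arrays. Not all probes had a clear low point, although each was counted by its lowest mean. GT_EA516_an_s_sp_1383 stood at 2.19 ± 0.48 (SD, n = 7) in spawning and 2.22 ± 0.34 (n = 7) in pre-spawning testis, and at 1.28 ± 0.59 (n = 6), 1.26 ± 0.34 (n = 5) and 1.39 ± 0.28 (n = 6) in post-spawning, recrudescence and developing testis. These 3 means differed by less than the spread between arrays, and the breeding and other arrays overlapped between 1.39 and 1.88. By its lowest mean this probe is counted with those lowest in recrudescence, not in developing testis.

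**Figure D2:**
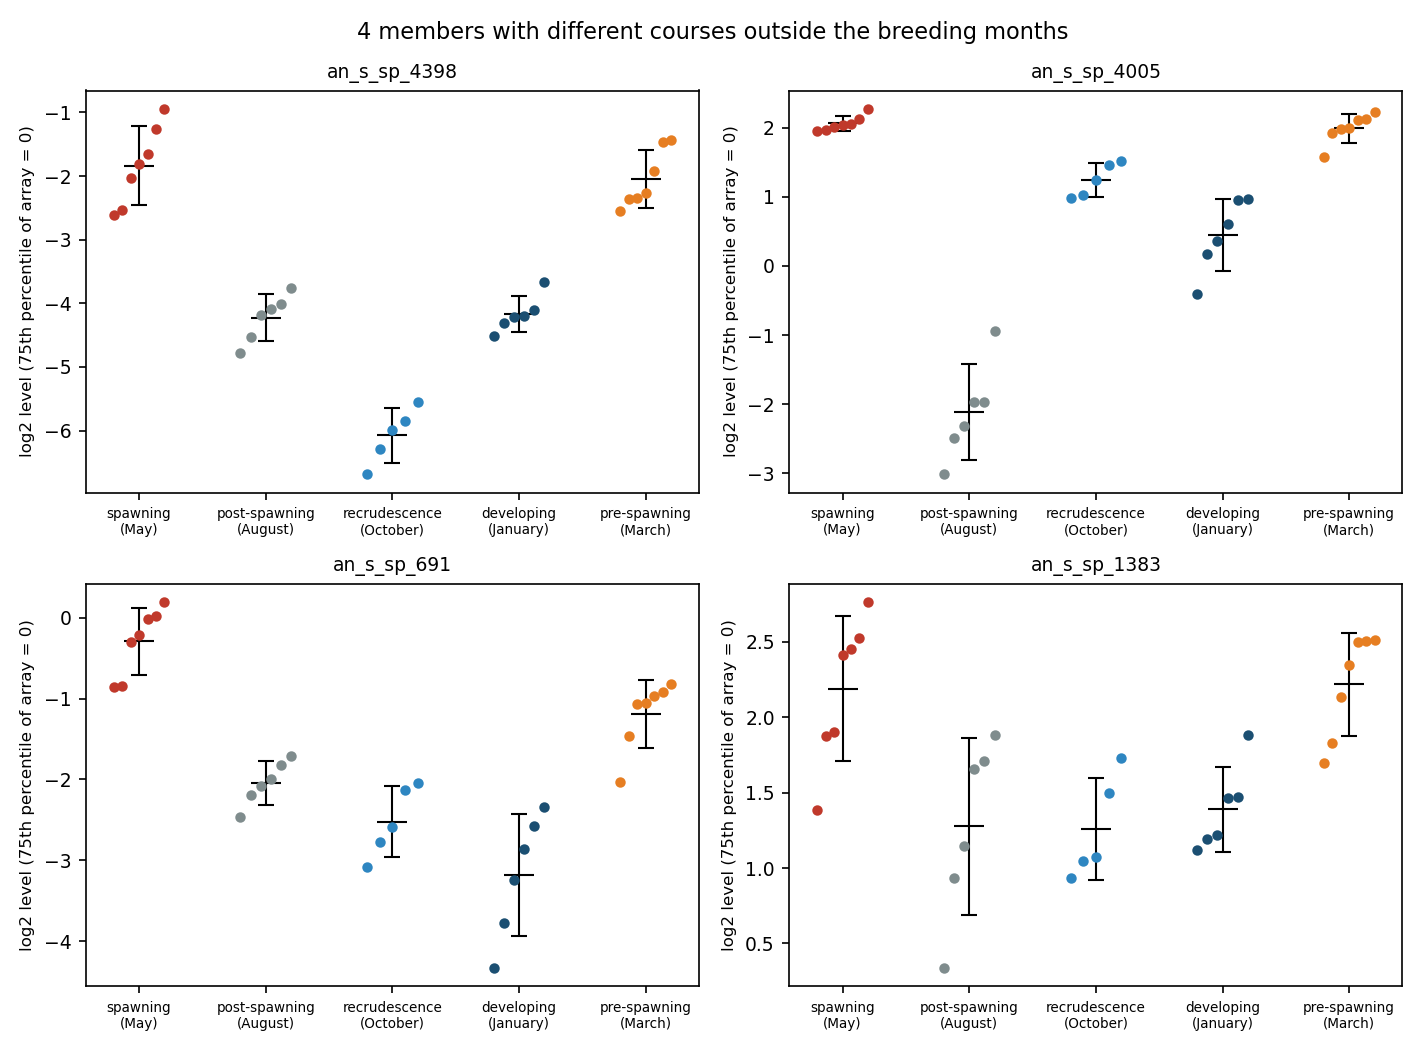
Log2 levels of an_s_sp_4398, an_s_sp_4005, an_s_sp_691 and an_s_sp_1383 on each array, by stage in calendar order from spawning. Points are arrays, set sideways in order of value, horizontal bars are means and error bars are SDs (n = 7, 6, 5, 6 and 7); the low point falls in recrudescence for the first probe, in post-spawning testis for the next and in developing testis for an_s_sp_691, while an_s_sp_1383 has no clear low point.

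Between pairs of stages outside breeding, 16 probes had all recrudescence arrays above all post-spawning arrays (18.2% of all tested probes did) and 6 had the opposite order (36.7%). All developing arrays lay above all post-spawning arrays for 13 probes (16.5% of those tested) and below them for 1 (24%). All recrudescence arrays lay above all developing arrays for 5 (9.86%) and below them for 1 (12.9%). The rule bounds these differences, and nothing is read from the comparison with the background.

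Spawning and pre-spawning testis were compared next, since the rule treats both stages alike and leaves the difference between them free in direction. The stages were collected in different years. Across all 8638 probes, limma (5 stage means fitted together, Benjamini-Hochberg adjustment) called 5.07% higher and 4.39% lower in spawning testis. Of the 54 probes, 2 were higher in spawning testis (3.70%), 0 were lower and 52 did not pass, where 9.46% of all probes passed in either direction. At an unadjusted p under 0.05 there were 5 higher and 0 lower among the 54 (9.26%, against 24.9% of all tested probes in either direction). Because the rule takes the lower of both means, a probe with a wide gap between them is less likely to be chosen, so that a share below the background is not read as a property of these transcripts. The differences ran from -0.33 to 1.05 with a median of 0.08, against 0.01 for all probes. They were above 0 for 36 probes and below 0 for 18, where 51.4% of all tested probes were above 0. Many of these signs changed when 1 array was left out, and some members varied together. Nothing is therefore read from these counts. The 95% interval had a median half-width of 0.46. For 40 of the 54 probes it lay within 2-fold in both directions, and for the other 14 a 2-fold difference is within the interval. All spawning arrays lay above all pre-spawning arrays for 1 probe (1.31% of all tested probes), and the opposite was found for 0 (1.1%).

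The larger of the 2 rises was that of GT_EA516_an_as_sp_43. Its levels ran from -2.39 to -1.35 (median -1.75) on the 7 spawning arrays and from -3.74 to -2.52 (median -2.68) on the 7 pre-spawning arrays. The groups did not overlap, and it is the 1 probe counted above. The difference was 1.05 ± 0.25 (SE) with an adjusted p of 0.0111 in limma. For an_s_sp_691 the difference was 0.90 ± 0.25 with an adjusted p of 0.0234, and its groups overlapped, between -0.85 and -0.82. Spawning testis was higher on each of the 4 slides, by 0.72 to 1.38 for an_as_sp_43 and by 0.65 to 1.18 for an_s_sp_691, with 1 to 3 arrays of a stage per slide. For an_as_sp_43 the call held when any single array was left out, with adjusted p up to 0.0282. Leaving out a whole slide gave differences of 0.92 to 1.16 for it and of 0.77 to 1.00 for an_s_sp_691, and ended some calls. Without slide 2 the adjusted p was 0.133 for an_as_sp_43 and 0.174 for an_s_sp_691, and without slide 4 it was 0.0881 and 0.148. Without slide 3 it was 0.000322 and 0.00168, and a fit that includes slide gave 0.000725 and 0.00307. Both probes stood low on most slide 3 arrays, as described below with the slides. For an_s_sp_691 the call was also lost without slide 1 (0.065), without pre-spawning replicate 3 (0.0558) or 7 (0.0521), without spawning replicate 5 (0.0547) and with scaling to spike-in probes (0.0525). The difference stayed above 0 for both probes in all 53 alternatives tried, from 0.90 to 1.30 and from 0.76 to 1.16. Many of these alternatives could not test its sign. Leaving out arrays of the stages outside breeding, or changing the filter on dim probes, cannot alter the difference and returned 1.05 and 0.90. Omitting a single breeding array could not reverse the sign either. Both probes were singled out on condition that their sign withstood each such omission. The results for an_as_sp_43 and an_s_sp_691 are also not independent, since both probes varied together from array to array within a stage, as described below.

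**Figure D3:**
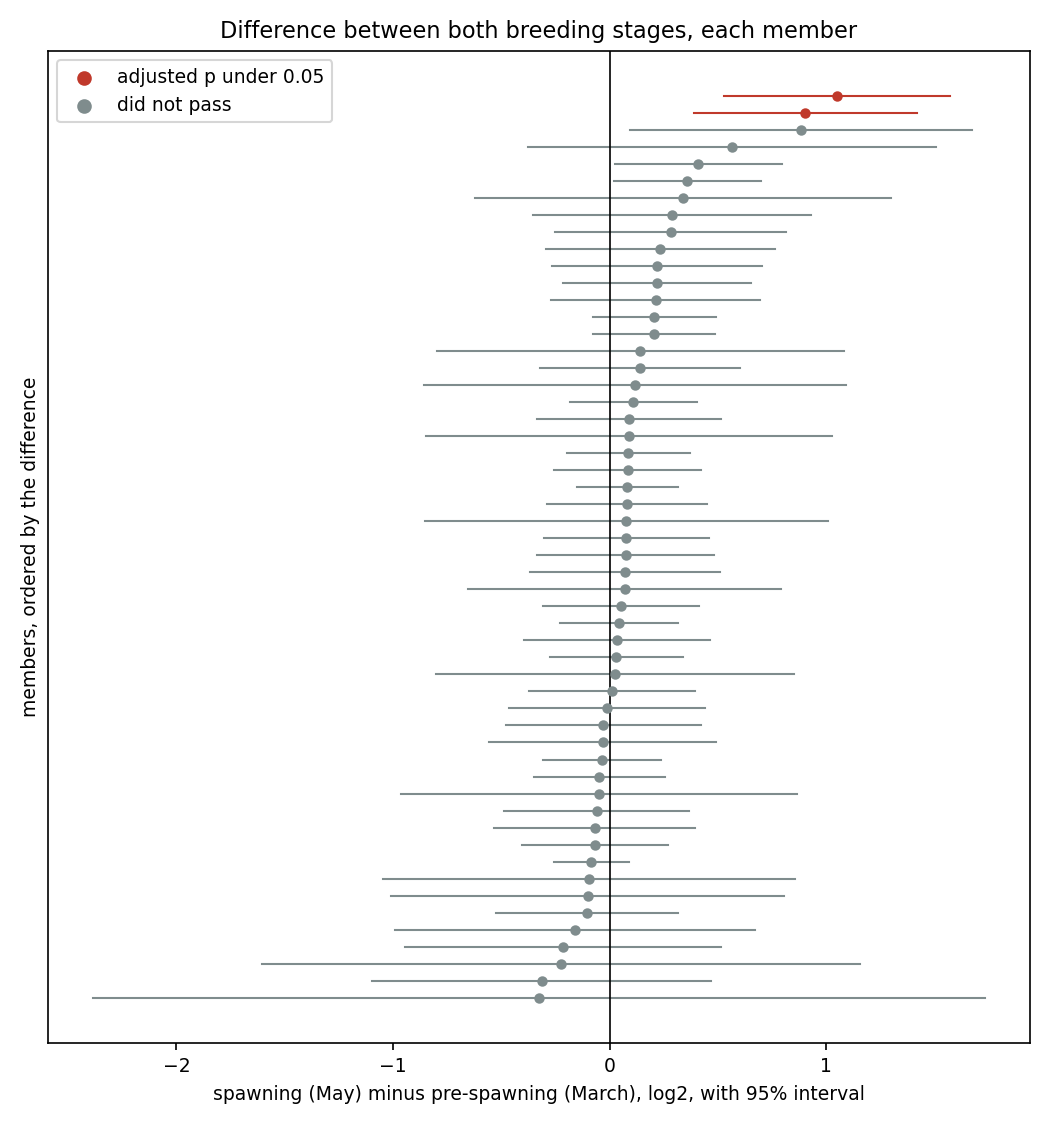
Difference in log2 level between spawning and pre-spawning testis for each of the 54 probes, with 95% intervals from limma, ordered by size. The 2 probes that passed are red, and the other 52 are grey, most of them with intervals that include 0.

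The 54 probes varied more among the arrays of a stage than the probes on the array at large. The rule used no SD, but a wide spread makes it easier for means of 5 to 7 arrays to reach the margin, so that this too is a description and is not independent of the choice. The SD within stages had a median of 0.43, against 0.30 over all tested probes. Among probes with 2 spots that were well above background on all arrays, it was 0.41 for the 33 members and 0.24 for all. The difference between the 2 spots of a probe on 1 array was far smaller, with a median SD of 0.08 for these members and 0.07 for all. The spread between arrays was larger than the spread between spots for 38 of the 41 members with 2 spots. In the other 3, with spot SDs of 0.58, 0.58 and 0.73, the probe was well above background on 12 to 25 arrays. The spread between arrays includes differences among fish and those of RNA extraction, labelling and hybridisation. By stage, the median SD of the members was highest in developing testis (0.47) and lay between 0.36 and 0.41 in the other stages, and in each stage it was above that of all tested probes (0.26 to 0.29).

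Deviations from the stage mean were for most pairs of members weakly related. Across the 1431 pairs, the correlation of these deviations over 31 arrays had a median of 0.07, against 0.02 over all pairs of tested probes, and 3.28% of pairs exceeded 0.5, against 3.19%. With only probes well above background on all arrays, the median was 0.12 for members and 0.01 for all such probes. Of these pairs, 5.41% of the members' and 4.05% of all exceeded 0.5. Among the 465 pairs within the group lowest in post-spawning testis the median was 0.18. A few members were close copies of each other. The correlation exceeded 0.9 in 9 pairs formed by 10 of the members (0.629% of pairs, against 0.0151% over all tested probes). Probes that vary alike on these arrays tend to meet or miss the rule together. The larger share is therefore a description and is not independent of the choice. Whether such probes measure a shared transcript was not tested, and these correlations describe arrays that also share stage collections and slides. Whether the 54 probes stand for 54 separate transcripts is therefore not known.

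A set of 4 such probes comprised GT_EA516_un_s_xh_5988, GT_EA516_un_as_xh_211, GT_EA516_un_s_sp_47225 and GT_EA516_un_as_sp_1345, whose deviations correlated with each other at 0.97 to 0.99. Their levels varied widely between the arrays of a stage, and on the same arrays. For un_as_xh_211 the 5 recrudescence levels were -2.93, -2.92, -0.59, -3.61 and -0.67, so that replicates 3 and 5 stood among the higher breeding arrays and the other 3 arrays below every breeding array. On the 7 spawning arrays the levels were -0.53, -1.47, -2.23, -0.60, -0.45, -2.23 and -0.54, with replicates 3 and 6 lowest. The developing levels were -1.33, -3.35, -1.84, -4.11, -3.37 and -3.54, with replicates 1 and 3 highest. The pre-spawning levels ran from -2.34 to -0.25, with replicates 4 and 6 lowest. Only the post-spawning arrays were uniform, at -4.27 to -3.51. In the other 3 probes, too, recrudescence replicates 3 and 5 and developing replicates 1 and 3 were highest, and spawning replicates 3 and 6 and pre-spawning replicates 4 and 6 lowest, of their stages. For all 4 probes the recrudescence and developing means thus average arrays that lie more than 2 log2 units apart, and the breeding and other arrays overlapped in each of them.

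**Figure D4:**
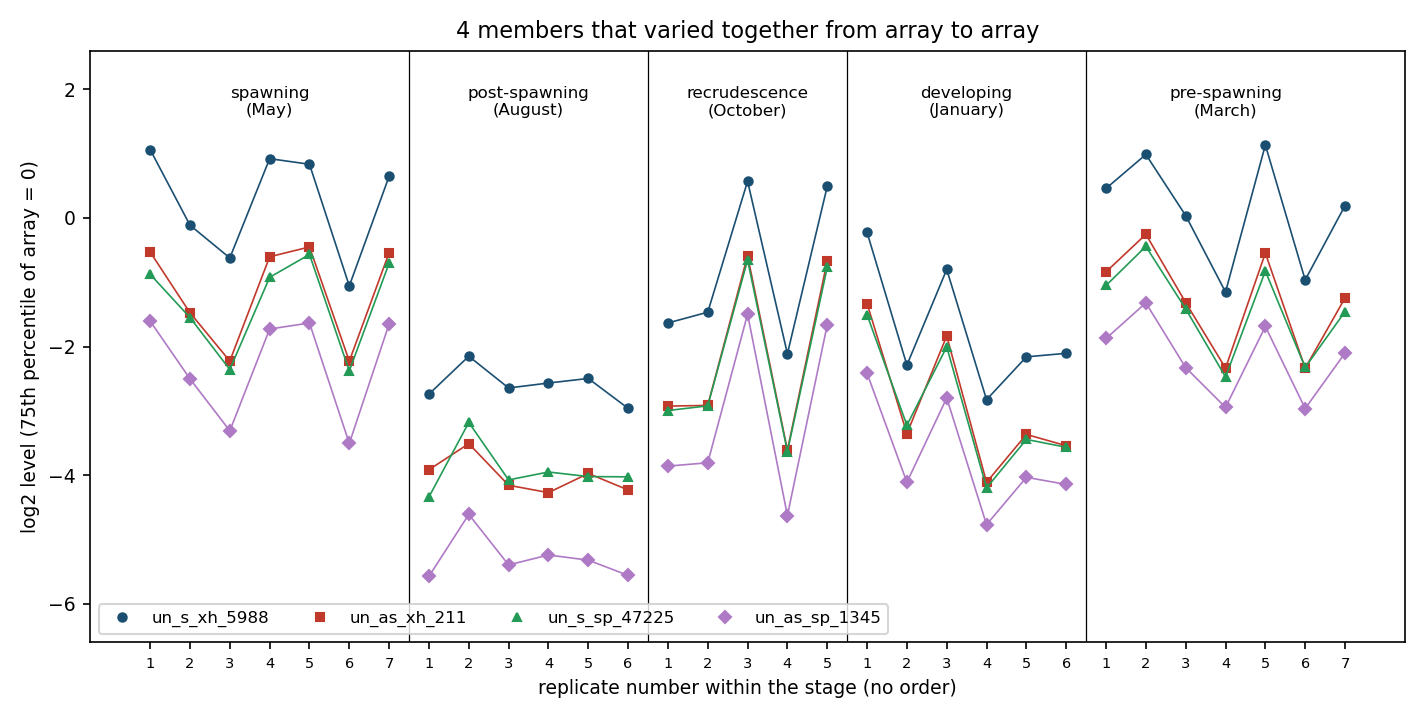
Log2 levels of un_s_xh_5988, un_as_xh_211, un_s_sp_47225 and un_as_sp_1345 on each of the 31 arrays, grouped by stage; lines join the arrays of a stage only to guide the eye, since replicate numbers carry no order. The 4 probes rise and fall on the same arrays, with recrudescence replicates 3 and 5 and developing replicates 1 and 3 high and spawning replicates 3 and 6 low.

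Array brightness moved with this set in recrudescence. The 2 high recrudescence arrays had 75th percentiles of 4281 and 4473, against 3100 to 3823 on the other 3. The 2 low spawning arrays had 3488 and 4461, the latter the highest of that stage (2734 to 4461). The 2 high developing arrays had 3991 and 5093, against 3212 to 4288 on the other 4, and the 2 low pre-spawning arrays had 3279 and 3346, against 3171 to 4187. The part of brightness in the result was not tested. Without recrudescence replicates 3 and 5 the rule gave 70 probes, with 51 of the 54 among them. Without developing replicates 1 and 3 it gave 48, with 44 of the 54.

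The remaining 3 close pairs lay outside that set. GT_EA516_un_s_xh_3522 and GT_EA516_un_s_xh_7190 were nearly identical, with levels that differed by a median of 0.10 and at most 0.26 on any array and deviations that correlated at 0.997. Both varied widely within stages, from -4.83 to -1.76 in post-spawning and from -2.99 to -0.84 in pre-spawning testis for un_s_xh_3522. Probes an_s_xh_391 and GT_EA516_an_s_xh_4044 correlated at 0.95, with unequal brightness (a median gap of 2.06). Probes an_as_sp_43 and an_s_sp_691, which were the 2 called between spawning and pre-spawning testis, correlated at 0.97.

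The arrays were hybridised on 4 slides. With stage held, limma's F test called 0% of the 8638 probes as different between slides, none of the 54 among them, and at an unadjusted p under 0.05 there were 4 of the 54 (7.41%) against 4.87% of all. This does not show that slides were alike for each probe. On slide 3, an_as_sp_43 deviated from its stage means by -1.02 to -0.52, except for recrudescence replicate 3 at 0.52. For an_s_sp_691 these deviations were -1.14 to -0.42, except for the same array at 0.48. Their cause was not tested. Within slides, where a stage has 1 to 3 arrays, both breeding means lay above all other stage means for 51, 52, 43 and 52 of the 54 probes on slides 1 to 4, against 11.4%, 10.9%, 13.4% and 22.9% of all tested probes, a contrast the rule used and so a description. Slide 4 holds no recrudescence array.

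The meaning of the fields within the probe names is not known here, and they are given as counts. Of the 54 names, 33 (61.1%) carry "an" and 21 "un", against 72.1% "an" among the GT_ probes tested. The field "s" is carried by 42 (77.8%, against 69.2%) and "sp" by 40 (74.1%, against 67.2%).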

How the data were processed

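Testis RNA of 31 rainbow darters was measured on 1-colour Agilent arrays. Per the file headers, the authors extracted the scans with Agilent Feature Extraction 10.7.1.1, and the deposited spot intensity is on a linear scale after background subtraction, with no scaling between arrays. Flags of other kinds (well above background, outlier, saturated) come with it. The authors' deposited log2 table of the same arrays, made in a way that the sources do not give, served as an alternative.

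The log2 intensity was taken relative to each array's 75th percentile, and the mean over a probe's spots was taken. Over all arrays 426 spots were flagged as outliers. They were dropped, except where all spots of a probe on an array were flagged and its value was kept. Membership follows the rule in the opening, without removal of outlier spots, which changed no member. Probes needed a share of at least 0.5 of their spots well above background on an array, and those that met this on 5 or more arrays (8638) were fitted with limma 3.58.1 in R 4.3.3 (lmFit, eBayes), adjusted by Benjamini-Hochberg over all of them with a threshold of 0.05. The fit was tried on simulated data with independent noise and the spreads of the tested probes. For spawning minus pre-spawning it called 43.3% of 1.5-fold (67 probes changed), 73.1% of 2-fold (67) and 95.5% of 4-fold changes (66). Of the 153 calls, 12 were false. These rates are for probes with the spread of all those tested, whose median SD within stages was 0.30. For the members that median was 0.43, so that the rates cannot be carried over to them. In the measured data 817 of the 8638 probes passed, against the 153 calls here, which limits the rates further. The number of arrays limits the precision, and their depth has no count.

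The bound for a dim stage is the mean, per array, of either the array's lowest signal that counts as well above background or the probe's measured signal, whichever is higher. The array's lowest such signal is an extreme over many spots, so that the bound is approximate. No fold of a single probe is given from it. The members, lists and tests were chosen with earlier results of these data known. Since no gene names were given, the gene and marker lists gave no result, and the rule for named probes fell back to the 2 largest margins and the largest called rises and falls between pre-spawning and spawning testis (2 rises, no falls). For a rise or fall to count there, its sign also had to withstand the omission of each single array. Titles and descriptions number the replicates differently. Same-numbered spawning and pre-spawning arrays deviated together little (correlations of -0.08 to 0.13 by title). This shows no sign of pairing by number but cannot exclude it.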

Additional observations from a re-analysis of the deposited data

Results flagged for a closer look

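In 80 groups (16 measures in 5 stages), 3 arrays stood further from the others of their stage than Dixon's criterion at 95% allows, where chance alone gives about 1 in 20 groups. Most of these measures are probes singled out for their values, and several vary together. In post-spawning testis, replicate 2 was highest for un_as_sp_1345 (-4.61, the next array being at -5.24) and for un_s_sp_47225 (-3.18, the next at -3.95). In pre-spawning testis, replicate 5 was highest for an_s_xh_391 (1.95, the next at 1.13).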

How the results depend on the processing

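All 54 probes kept breeding means above all other stage means under median centring, quantile normalisation, spike-in scaling, normexp, the authors' log2 table and linear averaging of spots. The lowest margin was 0.17 (normexp). The rule used this contrast on the same arrays, so that this is a description and not a separate test of the seasonal difference. How many probes met the rule depended on the scale. There were 83 with median centring (53 of the 54 among them), 77 with quantile normalisation (48) and 76 with the authors' log2 table (49). Spike-in scaling gave 25 (24) and normexp 31 (30), and the cause was not tested. Leaving out 1 array gave 43 to 65 probes, with 41 to 54 of the 54 among them and 25 of the 54 present each time. The 25 have margins of 0.77 or more, and the largest margin of a probe lost at least once was 1.15. Of the probes described singly, an_s_sp_4398, an_s_sp_3909 and an_s_xh_391 were lost in 0 of these omissions and an_s_sp_4005 in 2. Probe an_as_sp_43 was lost in 3, an_s_sp_691 in 5, each of the set of 4 that varied together in 3 to 6, and un_s_sp_13156 in 11. Leaving out a slide gave 51 to 64, and 34 of the 54 remained without slide 1. The number of members higher in spawning than in pre-spawning testis was 1 with spike-in scaling, 0 without slide 2 and 0 without slide 4, and 1 to 3 without 1 array. It was 2 with the replicate number as a block, by titles or by descriptions, and with slide as a fixed or random block. No member was called lower in any of 53 alternatives in limma. The median difference was 0.01 to 0.33. Slides stayed at 0 members in both alternatives run. Dim signal limits the 16 probes not above background on all arrays. The 2 double omissions were added after the data were seen.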

Other observations

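Probes with the opposite seasonal course were more frequent than those described here. Of the 8638 tested probes, 316 had both breeding means at least 0.7 below all other stage means, against 55 with both at least 0.7 above. The numbers were 244 and 87 with median centring, 209 and 83 with quantile normalisation, 355 and 26 with spike-in scaling and 91 and 31 with normexp.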
